A study of Mus musculus with 12 samples.

Results

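The insulin-like growth factor (IGF) system was followed through 10 genes of the mouse expression table, out of 48623 genes it holds: the ligands *Igf1* and *Igf2*, the receptors *Igf1r* and *Igf2r*, and the binding proteins *Igfbp2* to *Igfbp7*. The members were taken by gene symbol alone, and each symbol matched 1 Ensembl gene. IGF1 and IGF2 are secreted peptides that act through the IGF1 receptor, a tyrosine kinase that feeds the PI3K-AKT and MAPK pathways, while the IGF2 receptor takes up IGF2 for degradation and also sorts lysosomal enzymes carrying mannose-6-phosphate. IGF-binding proteins hold the ligands outside the cell and can either withhold them from the receptor or deliver them to it. In the brain microglia are a known source of IGF1, and astrocytes and vascular cells are known sources of several binding proteins.

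Primary microglia, the resident macrophages of the brain, had been grown from the cortices and hippocampi of newborn C57BL/6J-background mice. All 12 libraries belong to 1 of 4 groups of 3: wild-type (WT) untreated, WT with IL-4, homozygous *Trem2* R47H knock-in (KI) untreated and KI with IL-4. IL-4, a cytokine that drives alternative activation of macrophages, was given at 20 ng/ml for 48 h. Each of 6 cultures (T13, T33 and T43 for WT, T15, T22 and T32 for KI) gave 1 library with IL-4 and 1 without. The study describes WT cultures as pools of pups and KI-line pups as cultured one by one. For its RNA sequencing it names WT littermates and 3 mice per genotype and condition. The labels do not say how these 6 cultures were made, and whether preparation differed with genotype was not tested. The knock-in allele of this mouse line also lowers *Trem2* expression. The astrocyte layer had been lifted off by mild trypsin and the remaining cells were kept in serum-containing medium conditioned by the mixed glia, and only RNA was measured here, so ligand supplied with the medium was not seen.

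*Trem2* separated the libraries as labelled, at 1190.4 to 1886 TPM in WT and 324.6 to 769.9 TPM in KI. TPM are transcript abundances per length, scaled to sum to 1000000 in every library. The 18 microglial markers summed to 35110.0 to 48986 TPM in WT and 15343 to 35878 TPM in KI libraries, with the lowest in T15, and within each treatment all KI sums lay below all WT sums. Of these 18 genes, 5 passed as lower in KI (limma F-test; *Csf1r*, *Aif1*, *Itgam*, *C1qb* and *Fcrls*) and 2 with culture as a block, with a median difference of -0.65 on the log2(TPM + 1) scale and 1 positive value. The 13 astrocyte markers summed to 175.3 to 748.1 TPM in WT and 243.7 to 5063 TPM in KI libraries, with both T15 libraries (5063 and 3950 TPM) apart from the rest. The 11 of them that were tested all had positive KI-minus-WT differences, with a median of 1.625. In the F-test 0 passed. When the difference averaged over treatments was tested alone 2 passed (*Slc1a3* and *Sox9*), as did 5.13% of all genes. Of 10 mural markers, the contractile genes *Acta2*, *Tagln* and *Cnn1* made up most of a sum of 143.9 to 428.8 TPM in WT and 720.9 to 1417 TPM in KI, whereas *Myh11*, *Rgs5*, *Kcnj8* and *Abcc9* stayed below 1 TPM in every library. The choroid plexus and ependymal markers were low, but their sum was higher in every KI library (6.33 to 32.4 TPM) than in any WT library (0.0686 to 6.19 TPM). The oligodendrocyte-lineage markers summed to 69.5 to 150.9 TPM in WT and 142.9 to 546.8 TPM in KI, with 1 of 7 tested genes passing (*Olig1*, a transcription factor of that lineage) and 0 with culture as a block, and a median difference of 0.27. The part of these other cell types in the genotype differences was not tested. In such bulk samples fewer cells of a type and less RNA per cell cannot be told apart. By staining, the study reported that the share of microglia did not change much between WT and homozygous KI cultures, untreated or with IL-4. It does not say whether the stained cultures were those sequenced. The median KI-minus-WT difference of all genes tested was 0.13, and quantile normalization moved it to -0.06.

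The family ranged from some of the most abundant transcripts of these cultures to ones near 0. *Igf1* ranked 38th to 171st of all genes by TPM depending on the library, and *Igfbp2* ranked 33rd to 577th. *Igfbp3*, *Igfbp4*, *Igfbp5* and *Igfbp7* followed at means of 105.8, 60.9, 49.1 and 58.0 TPM over the 12 libraries, with 15.5, 8.79, 19.2 and 14.3 times as much in the highest as in the lowest library. *Igf2r*, *Igfbp6* and *Igf1r* were low, at 4.34, 3.12 and 2.34 TPM. *Igf2* was listed at 0 in 6 libraries and had a mean of 0.398 TPM. A gene was tested when its mean log2(TPM + 1) was above 1.5, which 9 members passed. *Igf1r* (1.67) and *Igfbp6* (1.65) passed narrowly, and the WT libraries of *Igf1r* alone averaged 1.34, so that it passed through the KI libraries, while the KI libraries of *Igfbp6* averaged 1.37, so that it passed through the WT libraries.

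Of the 9 members tested, 2 differed between genotypes and both were higher in KI, *Igfbp2* and *Igfbp3* (limma F-test over both treatments, Benjamini-Hochberg adjusted p below 0.05). Over all 11204 genes tested 1.65% passed the same threshold, 1.29% higher and 0.357% lower in KI. IL-4 changed 1 member, *Igf1*, which rose, against 0.893% of all genes. For the interaction of genotype and IL-4 no member passed in limma, nor did any other gene, and 0 members and 357 genes (3.19%) had an unadjusted p below 0.05. Without the filter on low values 4 genes passed for the interaction, none of them a member.

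**Figure D1:**
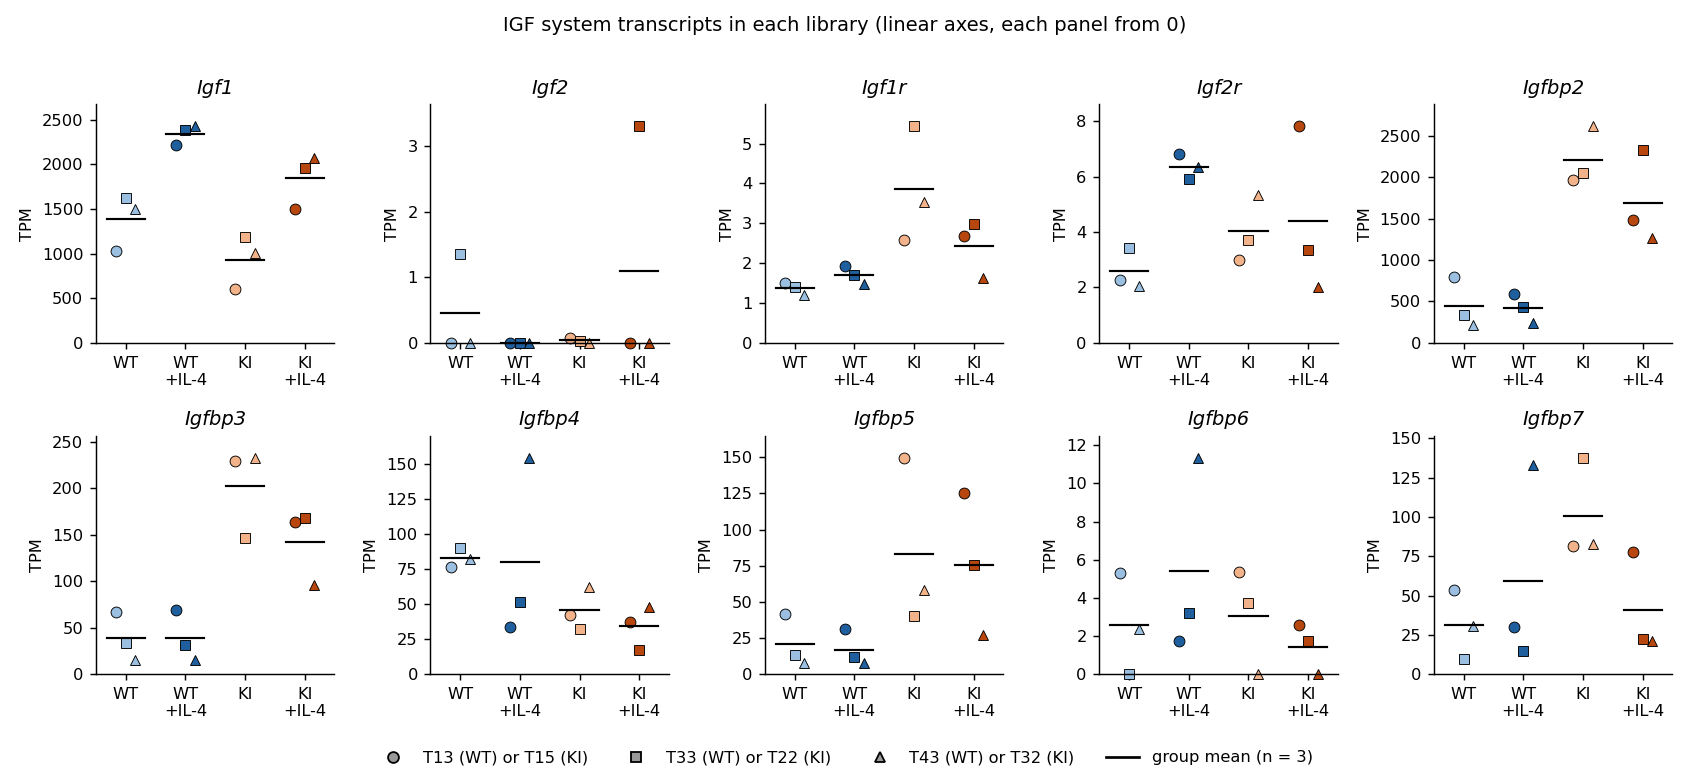
TPM (linear axes, each panel from 0) of the 10 members in every library of the 4 groups, with point shapes for the cultures and lines for the group means of 3 libraries. *Igfbp2* and *Igfbp3* are higher in all 6 KI than in all 6 WT libraries, and *Igf1* is higher with IL-4 in every culture.

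*Igf1* encodes the ligand that is the main growth-promoting IGF after birth (ENSMUSG00000020053, GRCm38 chr10:87858265-87937042, plus strand, 8 annotated transcripts). The 250 bases before its RefSeq start are shown because *Igf1* was the member that responded to IL-4. They lie at chr10:87860861-87861110 (plus strand, GRCm38.p6), inside the annotated gene, since longer transcripts start upstream. Capitals mark GAGGAA, the core letters that the macrophage factor PU.1 is known to bind.
Igf1: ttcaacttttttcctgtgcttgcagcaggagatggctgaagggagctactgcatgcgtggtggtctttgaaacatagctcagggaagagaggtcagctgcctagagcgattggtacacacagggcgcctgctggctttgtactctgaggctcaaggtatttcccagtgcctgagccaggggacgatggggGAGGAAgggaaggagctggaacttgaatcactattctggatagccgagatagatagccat
The GAGGAA match lies 60 to 55 bases before the start, and 23.3% of 32851 RefSeq promoter windows of this length hold that motif on either strand. Neither of the palindromes that STAT factors are known to bind, TTCNNNNGAA and TTCNNNGAA (in 5.85% and 7.02% of all windows), is in this window or in that of any other member. A match or its lack in 250 bases is a description of letters only.

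In untreated WT libraries *Igf1* was 1029.8, 1624 and 1496 TPM in T13, T33 and T43, and with IL-4 it was 2215, 2384 and 2427 TPM in the same order. In KI it was 604.5, 1191 and 1002 TPM untreated in T15, T22 and T32, and 1500.5, 1961 and 2066 TPM with IL-4. Within each genotype all 3 IL-4 libraries lay above all 3 untreated ones, as for 10.8% of genes in WT and 5.47% in KI. The ratio within a culture was 2.15, 1.47 and 1.62 in WT and 2.48, 1.65 and 2.06 in KI, so the increase was seen in 6 of 6 cultures, as for 5.73% of the genes tested. The microglial marker sum was also higher with IL-4 in 6 of 6 cultures, going from 35409, 36172 and 35110.0 to 48986, 40708 and 42779 TPM in WT and from 15343, 31252 and 25046 to 26216, 35878 and 35240.0 TPM in KI. Of its 18 genes, 1 passed as higher with IL-4 (*C1qa*) and 1 as lower (*Cx3cr1*), with a median of 0.18. With culture as a block 6 passed, of which *C1qa*, *C1qb*, *C1qc*, *Fcrls* and *Ctss* were higher with IL-4 and *Cx3cr1* lower, and the part of this shift in the *Igf1* values was not tested. The difference averaged over genotypes was 0.90 (SE 0.17, adjusted p = 0.0482), and with culture as a block, which uses that pairing, the adjusted p was 0.000452 (2.14% of genes passed there). By genotype it was 0.79 (SE 0.24) in WT and 1.02 (SE 0.24) in KI, and these differed by 0.24 (SE 0.34, adjusted p = 1.00). With single cultures left out this interaction went from 0.096 (without T15) to 0.40 (without T13). The IL-4 call against the threshold was fragile: 12 of 16 alternatives lost it, although the IL-4 difference stayed between 0.74 and 1.02 in all of them.

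The KI means of *Igf1* were below the WT means, but the difference did not pass the test. KI minus WT was -0.60 (SE 0.24) untreated and -0.36 (SE 0.24) after IL-4 (adjusted p of the F-test over both = 0.275). After IL-4 the 3 KI libraries lay below the 3 WT libraries, as for 5.79% of genes, while the untreated groups overlapped. The lowest *Igf1* value of each KI treatment was in T15, the culture with the fewest microglial and the most astrocyte transcripts, and without that culture the averaged difference moved from -0.48 to -0.27. Over the 12 libraries the genes with the most similar log2 profile to *Igf1* were *Tbxas1* (thromboxane synthase, Pearson r = 0.973), *P2ry6* (a UDP receptor, 0.970) and *Clta* (a clathrin light chain, 0.957); the libraries share cultures and treatment, so these are descriptions.

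*Igf2*, the second ligand, known for growth before birth (ENSMUSG00000048583, chr7:142650766-142666816, minus strand), was near 0 in most libraries. Its highest values were 3.31 TPM in KI T22 with IL-4 and 1.35 TPM in untreated WT T33, and every other library had less than 0.1 TPM. It did not reach the filter. In the fit without the filter its KI-minus-WT difference was 0.17 (SE 0.39, adjusted p = 0.761) and its IL-4 difference 0.12 (SE 0.39, adjusted p = 0.868). Exons of the antisense gene *Igf2os* overlap it, which had at most 0.183 TPM, as do exons of the same-strand gene *Gm49394*, which was not analysed here.

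*Igf1r* encodes the tyrosine kinase receptor through which both ligands signal (ENSMUSG00000005533, chr7:67952827-68233668, plus strand). It had 1.51, 1.41 and 1.21 TPM in untreated WT and 1.93, 1.70 and 1.48 TPM in IL-4-treated WT libraries. KI cultures T15, T22 and T32 had 2.59, 5.44 and 3.54 TPM untreated and 2.69, 2.99 and 1.63 TPM with IL-4. The untreated groups did not overlap, as for 13.6% of all genes tested with KI above WT, but *Igf1r* was tested only because its KI values lifted it over the filter. KI minus WT was 0.99 (SE 0.48) untreated and 0.33 (SE 0.48) after IL-4, and it did not pass (F-test adjusted p = 0.474). After IL-4 the groups overlapped through T32.

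*Igf2r*, which clears IGF2 and sorts lysosomal enzymes (ENSMUSG00000023830, chr17:12682406-12769664, minus strand), was 2.29, 3.44 and 2.07 TPM in untreated WT and 6.80, 5.93 and 6.33 TPM in IL-4-treated WT libraries. In KI it was 3.00, 3.73 and 5.34 TPM untreated and 7.82, 3.36 and 2.00 TPM with IL-4. All 3 WT cultures were thus higher with IL-4, without overlap, whereas only T15 of the KI cultures was clearly higher and T32 was lower. Of the 9 members, *Igf1* and *Igf2r* were the 2 with this separation in WT, which 10.8% of all genes also showed. The IL-4 difference was 1.05 (SE 0.49, adjusted p = 0.794) in WT and -0.02 (SE 0.49, adjusted p = 0.997) in KI, and the difference between these did not pass (interaction -1.07, SE 0.69, adjusted p = 1.00). With single cultures left out the interaction ran from -1.65 (without T15) to -0.54 (without T32). An antisense gene, *Airn*, lies over the introns of *Igf2r*. It had 0.168, 0.0893 and 0 TPM in untreated WT and 2.34, 1.52 and 0.841 TPM in IL-4-treated WT libraries, and in KI 1.39, 0 and 2.19 TPM untreated and 3.80, 0.0411 and 0.0838 TPM with IL-4. Like *Igf2r*, it was thus higher with IL-4 in all 3 WT cultures and in T15 and lower in T32. The sources used here give no strand setting for the counting, so reads of such a pair may not be separable, and the part of *Airn* in the *Igf2r* values was not tested.

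**Figure D2:**
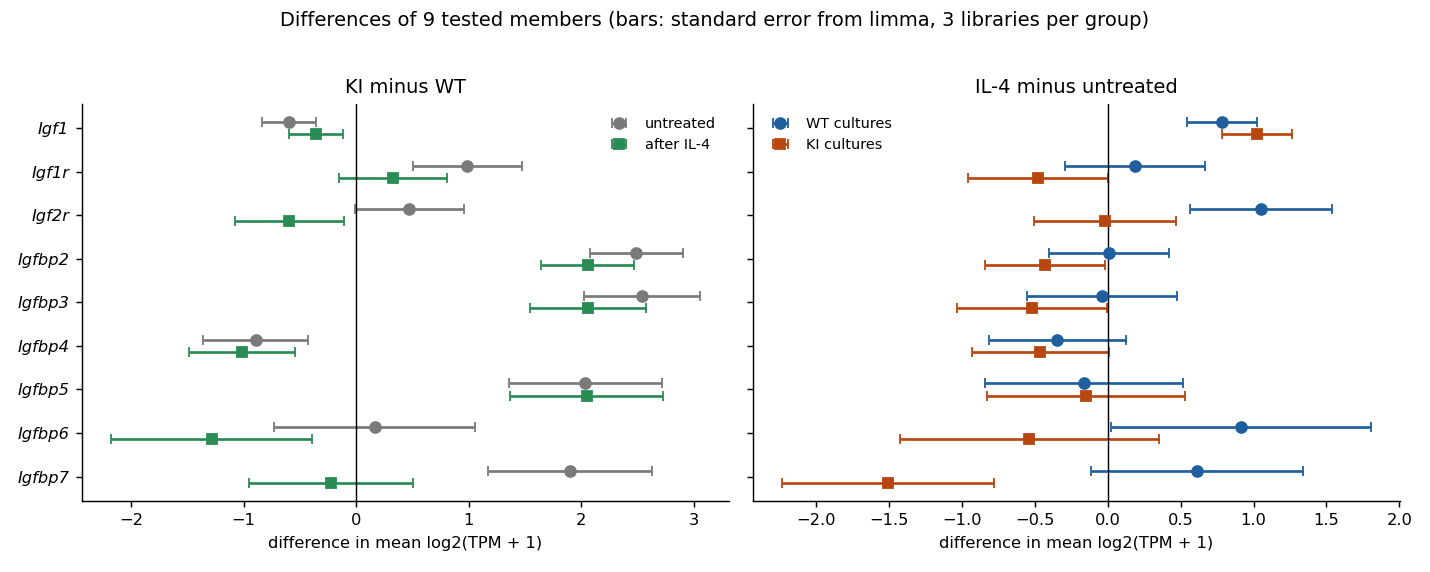
Differences in mean log2(TPM + 1) of the 9 tested members, KI minus WT on the left (untreated and after IL-4) and IL-4 minus untreated on the right (WT and KI cultures), with standard errors from limma. *Igfbp2*, *Igfbp3* and *Igfbp5* stand near 2 in both treatments on the left, and *Igf1* is above 0 in both genotypes on the right.

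*Igfbp2*, a binding protein abundant in brain and cerebrospinal fluid, and *Igfbp3*, the main IGF carrier of blood, were the members that differed by genotype, and *Igfbp5*, which binds matrix and bone, had a difference of similar size. *Igfbp2* (ENSMUSG00000039323, chr1:72824503-72852474, plus strand) and *Igfbp5* (ENSMUSG00000026185, chr1:72857932-72874884, minus strand) are neighbours that point towards each other, with 5.46 kb between their ends. *Igfbp3* (ENSMUSG00000020427, chr11:7206086-7213923, minus strand) lies on another chromosome. The 250 bases before the RefSeq start of each are shown since these genes varied together, at chr1:72824230-72824479 (plus strand, the upstream of 2 *Igfbp2* starts), chr11:7213924-7214173 (minus strand) and chr1:72874866-72875115 (minus strand), all GRCm38.p6. Capitals mark the GC box GGGCGG, which SP-family factors are known to bind.
Igfbp2: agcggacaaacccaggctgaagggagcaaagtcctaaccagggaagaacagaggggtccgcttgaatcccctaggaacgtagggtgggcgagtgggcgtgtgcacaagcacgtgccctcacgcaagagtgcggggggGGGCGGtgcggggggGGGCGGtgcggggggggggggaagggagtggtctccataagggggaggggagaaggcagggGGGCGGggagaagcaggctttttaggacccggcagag
Igfbp3: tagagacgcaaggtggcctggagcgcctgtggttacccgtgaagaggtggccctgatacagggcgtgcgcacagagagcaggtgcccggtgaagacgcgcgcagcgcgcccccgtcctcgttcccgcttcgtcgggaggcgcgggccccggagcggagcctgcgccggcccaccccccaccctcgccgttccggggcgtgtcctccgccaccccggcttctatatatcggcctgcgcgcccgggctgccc
Igfbp5: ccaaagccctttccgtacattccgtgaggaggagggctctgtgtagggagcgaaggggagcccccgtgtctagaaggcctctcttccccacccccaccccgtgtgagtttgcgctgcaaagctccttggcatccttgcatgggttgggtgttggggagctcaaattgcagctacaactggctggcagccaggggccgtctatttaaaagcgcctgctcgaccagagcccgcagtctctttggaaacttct
The *Igfbp2* window holds 3 GC boxes, a motif found in 32.7% of all windows on either strand, and those of *Igfbp3* and *Igfbp5* hold none of the 5 motifs searched (the GC box, GAGGAA, both STAT palindromes and TATAAA, the last in 12.4% of windows). Their GC contents are 67.2%, 73.2% and 58.8%, against a median of 52.4% over all windows.

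In untreated WT libraries *Igfbp2* was 797.0, 337.8 and 219.3 TPM in T13, T33 and T43, and with IL-4 it was 591.5, 429.5 and 234.9 TPM. In KI T15, T22 and T32 it was 1971, 2051 and 2617 TPM untreated and 1479, 2329 and 1260.2 TPM with IL-4. Every KI library lay above every WT library, and after IL-4 alone 12.7% of genes had the KI libraries above the WT libraries. *Igfbp2* and *Igfbp3* were the 2 members of 9 with this separation of all 6 KI from all 6 WT libraries, which 2.3% of genes showed. The KI mean was 4.90 times the WT mean untreated and 4.04 times after IL-4. Averaged over treatments the difference was 2.28 (SE 0.29, F-test adjusted p = 0.00597), and with median-ratio scaling of the libraries it was 2.12. With culture as a block the adjusted p was 0.0116, a fit in which 0.687% of genes passed. For genotype that fit used 1 within-culture correlation for all genes, 0.198, which may be too low for *Igfbp2*. Its IL-4 SE fell from 0.29 to 0.14 when culture was held fixed. Untreated cultures alone gave 2.49 (SE 0.41, adjusted p = 0.0158, as 1 of the 0.91% of genes that passed), and IL-4-treated cultures gave 2.06 (SE 0.41), which did not pass (adjusted p = 0.142, where 0.0179% of genes did) and was not distinguishable from the untreated value (interaction -0.43, SE 0.58, adjusted p = 1.00). Leaving out single cultures moved this interaction between -0.74 (without T22) and -0.12 (without T32). IL-4 itself left *Igfbp2* higher in 3 cultures and lower in 3.

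*Igfbp3* showed the same arrangement at a lower level. It was 66.9, 33.9 and 15.97 TPM in untreated WT T13, T33 and T43, and 68.9, 32.1 and 15.02 TPM with IL-4, so that the order of the WT cultures was kept. KI libraries had 228.8, 147.0 and 233.0 TPM untreated in T15, T22 and T32, and 163.8, 168.2 and 95.8 TPM with IL-4. KI minus WT was 2.30 (SE 0.36, F-test adjusted p = 0.0180), with 2.54 (SE 0.51, adjusted p = 0.0344) untreated and 2.06 (SE 0.51, adjusted p = 0.260) after IL-4. This call was less firm than that of *Igfbp2*. It was lost without WT T33 (adjusted p = 0.140), WT T43 (0.0606), KI T15 (0.0785) or KI T32 (0.0574), whereas *Igfbp2* lost its call only without WT T33 (0.0813) among these cultures.

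*Igfbp5* was 41.4, 13.4 and 7.80 TPM untreated and 31.0, 11.9 and 8.21 TPM with IL-4 in WT T13, T33 and T43. KI T15, T22 and T32 had 149.7, 40.4 and 58.4 TPM untreated and 125.3, 75.3 and 27.0 TPM with IL-4. The genotypes overlapped through WT T13, the WT culture with the most *Igfbp2*, *Igfbp3* and *Igfbp5*. The difference was 2.04 (SE 0.48) and missed the threshold in the F-test (adjusted p = 0.0902), passed it in a test of the single averaged coefficient (0.0277, as did 5.13% of genes) and passed it without WT T13 (0.0284). Of the KI cultures T15 had the most *Igfbp5*, and without it the difference was 1.53.

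Over the 12 libraries log2 *Igfbp2* and *Igfbp3* had a Pearson r of 0.979, *Igfbp3* and *Igfbp5* 0.932, and *Igfbp2* and *Igfbp5* 0.876. *Igfbp3* was the second closest of all tested genes to *Igfbp2* after *Hbegf* (an EGF-family ligand, 0.983) and before *Crip2* (a LIM protein, 0.974). *Igfbp2* was the closest of all to *Igfbp3*, followed by *Slc22a23* (a membrane transporter, 0.975) and *Crip2* (0.970). The ratio of *Igfbp2* to *Igfbp3* TPM stayed between 8.58 and 15.6 in WT and 8.62 and 14.0 in KI libraries, so that both genes scaled together while each level differed between genotypes. All of these points share cultures, libraries and genotype groups.

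The values of these 3 binding proteins are set beside markers of other cell types. The astrocyte sum was 748.1, 215.2 and 175.3 TPM in untreated WT T13, T33 and T43, and 5063, 243.7 and 654.7 TPM in untreated KI T15, T22 and T32. Of the 6 KI libraries, the 4 of T22 and T32 had astrocyte sums of 243.7 to 671.2 TPM. These sums lay above those of WT T33 and T43 (175.3 to 215.2 TPM) and inside the WT range only through T13 (748.1 and 673.6 TPM). T13 was also the WT culture with the most of these 3 binding proteins. The *Igfbp2* (1260.2 to 2617 TPM) and *Igfbp3* (95.8 to 233.0 TPM) of those 4 KI libraries exceeded every WT value, while their *Igfbp5* (27.0 to 75.3 TPM) did not. In both treatments the WT cultures ranked T13, T33, T43 in the astrocyte sum and in all 3 binding proteins. In T15, where the sum was highest, *Igfbp2* was the lowest of the untreated KI libraries, *Igfbp3* (228.8 TPM) lay between the other cultures and *Igfbp5* was the highest. With IL-4, *Igfbp2* (1479 TPM) and *Igfbp3* (163.8 TPM) of T15 lay between the other KI cultures. The 11 astrocyte genes tested had a median KI-minus-WT difference of 1.625, and *Gfap* was the most abundant (mean 609.3 TPM). Without T15 the *Igfbp2* difference was 2.35 and passed, and the *Igfbp3* difference was 2.19 and did not (limma F-test adjusted p = 0.0785). The mural sum separated all KI from all WT libraries, as *Igfbp2* did, and 3 of its 3 tested genes, *Acta2*, *Tagln* and *Cnn1*, passed for genotype, although *Cnn1* did not with culture as a block (limma F-test adjusted p = 0.0644). The part of such cells in the binding-protein values was not tested.

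**Figure D3:**
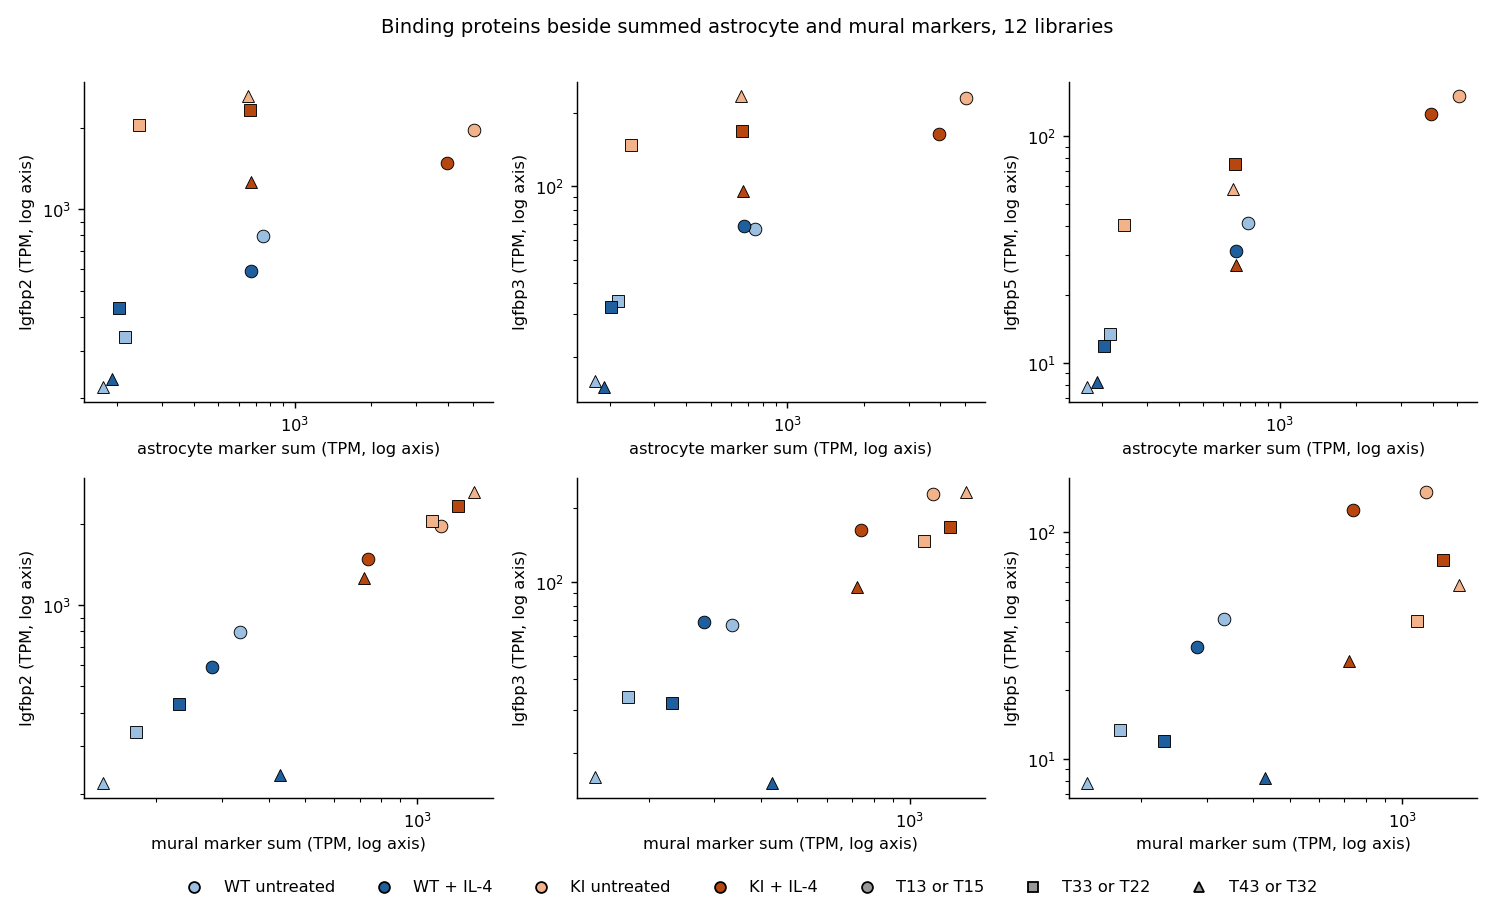
TPM of *Igfbp2*, *Igfbp3* and *Igfbp5* (vertical, log axes) against the summed TPM of astrocyte markers (top) and mural markers (bottom, horizontal log axes) in 12 libraries, coloured by group and shaped by culture. The untreated KI T22 library has high *Igfbp2* at an astrocyte sum of 243.7 TPM. That sum is above those of WT T33 and T43 (175.3 to 215.2 TPM) and inside the WT range only through T13 (748.1 and 673.6 TPM). The mural sum is higher in every KI than in every WT library.

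*Igfbp4*, an IGF inhibitor that is cleaved by pregnancy-associated plasma protein A (ENSMUSG00000017493, chr11:99041244-99054392, plus strand), ran the other way. Untreated WT libraries had 76.5, 90.3 and 82.6 TPM and untreated KI libraries 42.4, 32.5 and 62.3 TPM, without overlap, as for 4.55% of genes. With IL-4, WT T13, T33 and T43 had 33.9, 52.0 and 154.9 TPM and KI T15, T22 and T32 had 37.2, 17.6 and 48.2 TPM. KI minus WT was -0.89 (SE 0.47) untreated and -1.01 (SE 0.47) after IL-4, and the F-test did not pass (adjusted p = 0.280). *Igfbp4* was lower with IL-4 in 5 of 6 cultures, with WT T43 as the exception.

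*Igfbp7*, a relative with low IGF affinity that is deposited around vessels (ENSMUSG00000036256, chr5:77349240-77408041, minus strand), was the 1 member whose 3 KI libraries with IL-4 all lay below the 3 untreated KI libraries without overlap, as for 3.98% of genes. Untreated WT cultures had 53.7, 9.61 and 30.9 TPM and untreated KI cultures 81.7, 137.8 and 83.0 TPM, without overlap, as for 13.6% of genes. With IL-4 the WT cultures had 29.9, 15.03 and 133.0 TPM and the KI cultures 77.8, 22.7 and 21.5 TPM, which overlapped widely. KI minus WT was 1.90 (SE 0.73, adjusted p = 0.211) untreated and -0.22 (SE 0.73, adjusted p = 0.963) after IL-4, and the change between them, -2.12 (SE 1.03), did not pass (interaction adjusted p = 1.00). With single cultures left out, the genotype difference averaged over treatments, 0.84 in all libraries, went from 0.18 (without T33) to 1.34 (without T43) and the interaction from -2.84 (without T13 or T15) to -1.39 (without T43). The T43 library with IL-4 was the highest of its group at 133.0 TPM. Its exons overlap those of *Polr2b* on the other strand, a polymerase subunit gene with 11.8 to 40.1 TPM.

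*Igfbp6*, which prefers IGF2 (ENSMUSG00000023046, chr15:102144362-102149511, plus strand), was listed at 0 in 3 libraries and had 1.73 to 11.3 TPM in the other 9. Its highest value was in WT T43 with IL-4. That library also had the highest *Igfbp4* of all 12 (154.9 TPM), the second highest *Igfbp7* (133.0 TPM) and a fibroblast marker sum of 249.0 TPM, against 8.09 to 123.7 TPM in the other 11. Fibroblast genes in it included *Col1a1* at 85.9 TPM, against 2.93 to 28.8 TPM elsewhere. Their part in these 3 values was not tested. Neither genotype (-0.56, SE 0.63, adjusted p = 0.713) nor IL-4 (0.19, SE 0.63, adjusted p = 0.993) passed for *Igfbp6*.

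The balance of ligand and binding-protein transcripts can be read within a library, since TPM are per length and a ratio within 1 library does not depend on scaling. *Igfbp2* made up 42.1% to 89.1% of the summed TPM of the 6 binding proteins. *Igf1* exceeded *Igfbp2* in all 6 WT libraries, with ratios of 1.29, 4.81 and 6.82 untreated and 3.74, 5.55 and 10.3 with IL-4 in T13, T33 and T43. In untreated KI libraries *Igfbp2* exceeded *Igf1*, and the ratio was 0.307, 0.581 and 0.383 in T15, T22 and T32. With IL-4 it was 1.01, 0.842 and 1.64, higher in each KI culture than without. Only WT T13 untreated, at 1.29, fell inside the range of the IL-4-treated KI libraries. Against the sum of all 6 binding proteins the WT ratios of *Igf1* were 0.989, 3.35 and 4.17 untreated and 2.93, 4.38 and 4.36 with IL-4, so that untreated T13 fell just below 1. The KI ratios were 0.244, 0.494 and 0.328 untreated and 0.796, 0.750 and 1.42 with IL-4.

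**Figure D4:**
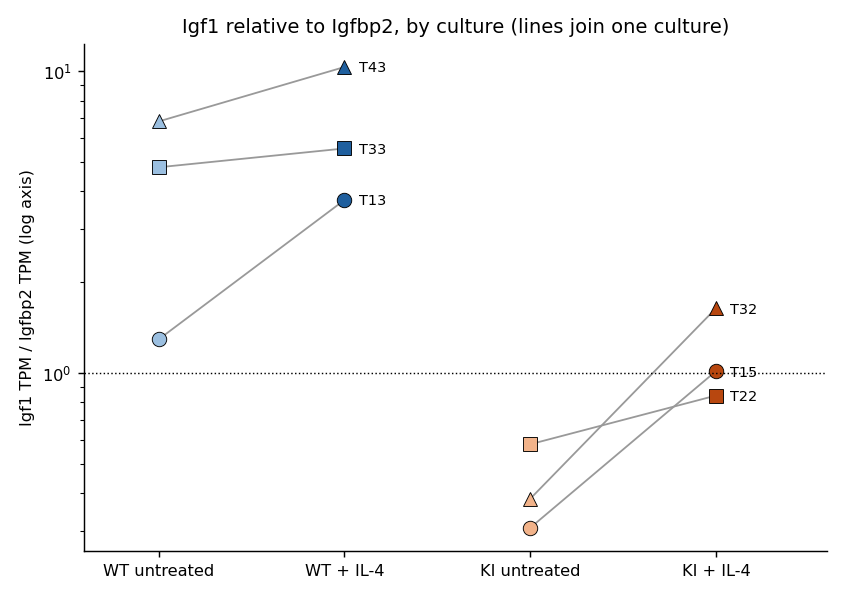
Ratio of *Igf1* to *Igfbp2* TPM (log axis) in each culture, untreated and with IL-4, with lines joining the libraries of a culture and a dotted line at a ratio of 1. All untreated KI libraries lie below 1 (0.307 to 0.581), all WT libraries above it (1.29 to 10.3), and every culture is higher with IL-4.

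A list of 56 further genes of the pathway covered other binding proteins, binding-protein proteases, the insulin receptor branch, adaptors, the PI3K-AKT-mTOR and MAPK arms, *Igf* mRNA-binding proteins, and peptide degradation with mannose-6-phosphate sorting. Of these, 41 passed the filter and 0 were called by limma for genotype, IL-4 or the interaction, with 5, 3 and 3 at an unadjusted p below 0.05, which 16.1%, 7.27% and 3.19% of all genes tested reached. With culture as a block the count was also 0 for genotype and for IL-4, and 3 passed for genotype when the averaged difference was tested alone, as did 5.13% of all genes. The median difference of the 41 genes was 0.13 for genotype and -0.01 for IL-4, beside 0.13 and 0.04 over all genes. *Igfbp1*, the remaining member of the high-affinity binding-protein family, and insulin (*Ins1*, *Ins2*) were listed at 0 in every library, and *Pappa*, the protease that cleaves *Igfbp4*, averaged 0.0624 TPM. Among the downstream genes, the kinase *Akt1* averaged 195.0 TPM and the adaptor *Grb2* 158.6 TPM, and the insulin receptor gene *Insr* averaged 5.54 TPM.

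Among the pathway genes, the smallest p for genotype belonged to *Irs2*, which couples the insulin and IGF1 receptors to PI3K and was named after its values were seen. It had 7.09 to 11.04 TPM in untreated WT and 21.7 to 46.7 TPM in untreated KI libraries, and 14.98 to 18.2 against 24.6 to 46.6 TPM after IL-4. The groups did not overlap in either treatment, as for 13.6% of all genes untreated and 12.7% after IL-4 in this direction. The difference was 1.19 (SE 0.25), and it missed the threshold (F-test adjusted p = 0.0539). It was 1 of the 3 genes that passed when the averaged difference was tested alone, with *Adam12*, a metalloprotease known to cut IGF-binding proteins (1.54, SE 0.42, F-test adjusted p = 0.147), and *Hras* (0.61, SE 0.17, F-test adjusted p = 0.144). *Adam12* had 0.515 to 3.42 TPM in WT and 2.77 to 10.1 TPM in KI libraries, and was tested only because its KI values lifted it over the filter.

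**Figure D5:**
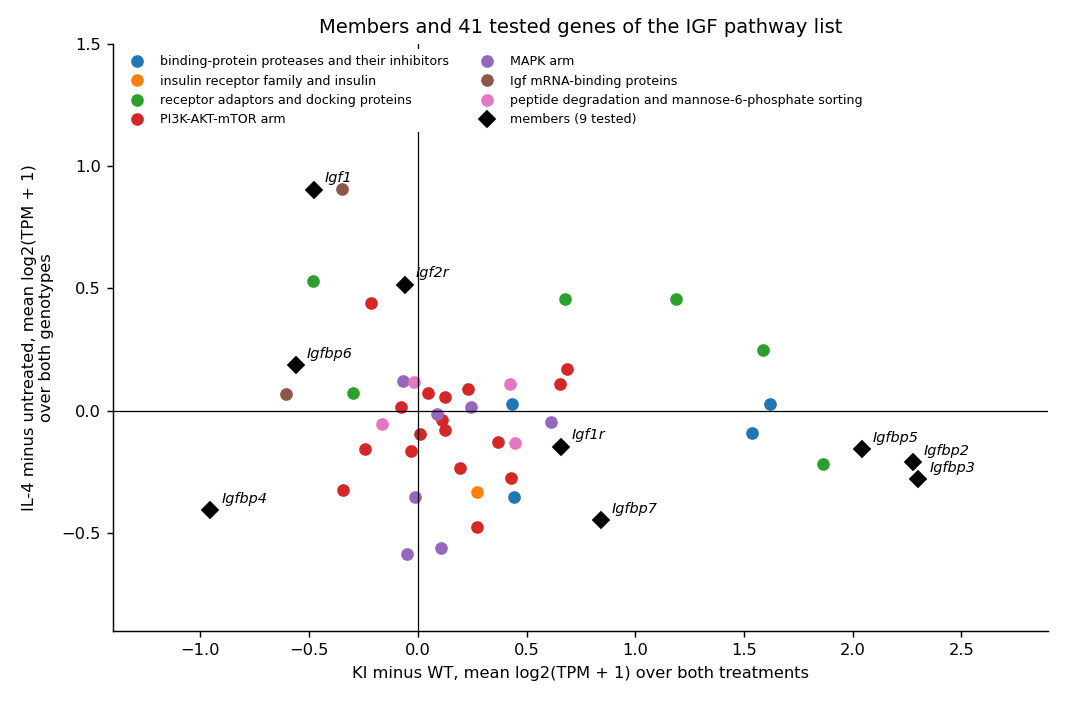
KI minus WT (horizontal) and IL-4 minus untreated (vertical) differences in mean log2(TPM + 1), each averaged over the other factor, for the 9 tested members (diamonds) and 41 genes of the pathway list (circles, coloured by sublist). *Igfbp2*, *Igfbp3* and *Igfbp5* lie farthest right at 2.28, 2.30 and 2.04, and *Igf1* lies at 0.90 on the vertical axis beside *Igf2bp2*.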

How the data were processed

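Poly(A)-primed RNA libraries of 6 microglial cultures, each untreated and with IL-4, were analysed. Per the labels and methods, the authors trimmed reads with Trim Galore and quantified them with Salmon on GRCm38. The deposited values are TPM per gene and library, corrected by the authors for transcript length and library size. The study gives a read number for the sequencing, but TPM keep no read counts, so the depth of each library is unknown, no counting interval is given, and limma replaced the count test the study used.

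Identifiers were matched to gene symbols (48350 of 48623 rows). Values were transformed to log2(TPM + 1), on which changes of low genes are understated. Genes with a mean above 1.5 (11204) were fitted with limma 3.58.1 in R 4.3.3 (variance trend) over all 12 libraries. F-tests covered the 2 genotype coefficients (untreated, after IL-4) and the 2 IL-4 coefficients (WT, KI), and a further test the interaction. p-values were Benjamini-Hochberg adjusted over all genes tested, with a threshold of 0.05. Tables and plots used Python 3.11.15, pandas 2.3.3 and matplotlib 3.10.9. Coordinates are from GENCODE on GRCm38 and promoter sequences from RefSeq GRCm38.p6, which matched all 10 members.

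Libraries were paired by the culture number their titles share. Deviations from the group means correlated within cultures at 0.34, 0.104, 0.104, 0.378, 0.121 and 0.0792 (T13, T33, T43, T15, T22, T32). Without a block, both libraries of each culture count as separate replicates, too many for genotype. The labels do not say which cultures shared a litter, so p-values cover these cultures only. Those without a block measure the spread of libraries within groups, and those for IL-4 with culture held fixed the spread of differences within cultures.

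All members are named, with *Trem2* as label check, the 3 genes most similar to each called member, and marker lists by sums. Endothelial markers summed to 26.2 to 146.3 TPM in WT and 33.9 to 136.7 TPM in KI, and neuronal markers to 6.80 to 23.8 and 16.4 to 67.4 TPM. The endothelial sum was higher with IL-4 in every culture (68.3 to 146.3 TPM, against 26.2 to 42.2 TPM untreated). *Flt1* of that list (limma F-test adjusted p = 0.00056) and *Postn* of the fibroblast list (0.0129) passed as higher with IL-4. The part of these shifts in the *Igf1* values was not tested. Members and lists were chosen with earlier results of these data known. Values of some single genes of the pathway list are not reported here.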

Additional observations from a re-analysis of the deposited data

How the results depend on the processing

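TPM give no depth per library, so counting error is not known, and with 3 cultures per genotype each call rests on few independent units. With culture as a replicate block, whose pairing comes from the shared numbers, 77 genes passed for genotype and 240 for IL-4 in place of 185 and 100, and the members called were *Igfbp2* (adjusted p = 0.0116), *Igfbp3* (0.0251) and *Igf1* (0.000452) as without it. Genotype and IL-4 counts were 16 and 61 without the filter (4 for the interaction), 26 and 50 without a variance trend, and 575 and 151 for the averaged coefficient. They were 102 for genotype in untreated and 2 in IL-4-treated libraries, and 64 for IL-4 in WT and 45 in KI. Leaving out a culture gave 3 to 191 (genotype), 46 to 143 (IL-4) and 0 (interaction). The higher against lower split for genotype was 145 to 40, and 90 to 56 with quantile normalization and 106 to 73 with median-ratio scaling.

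The *Igfbp2* difference stayed between 1.89 and 2.68 in 16 alternatives and passed in 12, failing also without the filter (adjusted p = 0.133) and without the trend (0.0524). *Igfbp3* stayed between 1.78 and 2.82 and passed in 9, failing also without the filter (0.212) and without the trend (0.0726). *Igfbp5* passed in 2 and *Igf1* for IL-4 in 4.

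Signs reversed for differences that did not pass: by treatment, genotype for *Igf2r* (0.47 untreated), *Igfbp6* (0.17 untreated) and *Igfbp7* (-0.22 after IL-4). By genotype, IL-4 for *Igf1r* (0.18), *Igfbp2* (0.0049) and *Igfbp7* (0.61) in WT and *Igf2r* (-0.018) and *Igfbp6* (-0.54) in KI. With quantile normalization it was *Igfbp6* for IL-4 (-0.064). Leaving out cultures gave -0.20 to 0.025 (*Igf2r*, genotype), -1.01 to 0.13 (*Igfbp6*, genotype), -0.42 to 0.076 (*Igfbp5*, IL-4), -0.10 to 0.72 (*Igfbp6*, IL-4), -0.51 to 0.48 (*Igfbp5*, interaction) and -0.52 to 0.50 (*Igfbp4*, interaction). The cause was not tested.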
